A study of Mus musculus with 2 samples.

Results

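Ppbp, Pf4, Gp6, Mpig6b, Treml1, Gp9, Gp1bb, Itga2b, Vwf and Myl9 are 10 genes of megakaryocytes and platelets, out of 24014 genes in the tables of a single-cell study of mouse bone marrow, and all 10 were present in both tables. They were picked because Ppbp, Gp6, Myl9 and Mpig6b had stood higher in the high-fat diet library in an earlier look at the same data. Their ratios between the diets therefore describe how they were chosen and are given with no test. The marrow came from wild type male mice of the strain labelled C57B/6, called young, that ate a diet with 60% fat (HFD) or normal chow (ND) for 16 weeks, and the study asks how the diet goes with neutrophils and blood formation. There was 1 library per diet, made on the BD Rhapsody platform, which captures single cells in microwells and counts RNA molecules by unique molecular identifiers (UMIs). The labels name no number of animals, no pooling and no sort or gate. No comparison could be tested, and every interval below is a 95% interval for counting error only. The HFD library held 17282 barcodes with 117773643 UMIs and the ND library 16817 barcodes with 117999042 UMIs, of which 15214 HFD cells and 13890 ND cells were kept. The libraries shared 329 barcode numbers.

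Megakaryocytes are large marrow cells that grow from stem and progenitor cells, fill with granules and a cytoskeleton of tubulin and myosin, and shed platelets into marrow vessels. Platelets have no nucleus and carry RNA taken over from the megakaryocyte. Ppbp and Pf4 encode chemokines stored in alpha granules and released when platelets are activated. Gp6 is the collagen receptor, Mpig6b an inhibitory receptor with ITIM motifs and Treml1 a granule receptor brought to the surface on activation. Gp9 and Gp1bb are subunits of the GPIb-IX-V complex, which binds the adhesive protein encoded by Vwf, and Itga2b is one chain of the fibrinogen receptor. Myl9 is a regulatory light chain of non-muscle myosin. Stem cells primed for the platelet lineage are known to carry Vwf and Itga2b RNA, and Itga2b is also known from mast cells and their progenitors.

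The promoters of the 4 genes the choice turned on and of Itga2b, a gene also read outside the lineage, are printed to show what sequence these genes share at their starts. The 250 bases before the start site were taken from RefSeq on GRCm38.p6, which matched 9 of the 10 genes (all but Vwf), and each is written 5′ to 3′ along the gene's own strand. Ppbp lies at chr5:90768268-90768517 on the plus strand, Gp6 at chr7:4397745-4397994 on the minus strand, Mpig6b at chr17:35066185-35066434 on the minus strand, Myl9 at chr2:156775214-156775463 on the plus strand and Itga2b at chr11:102469884-102470133 on the minus strand. Capitals mark AGATAA, a form of the GATA motif, in Gp6 and on the other strand in Mpig6b, the CArG box in Ppbp and Myl9, and AGGAAG, an ETS-type motif, in Itga2b.
Ppbp: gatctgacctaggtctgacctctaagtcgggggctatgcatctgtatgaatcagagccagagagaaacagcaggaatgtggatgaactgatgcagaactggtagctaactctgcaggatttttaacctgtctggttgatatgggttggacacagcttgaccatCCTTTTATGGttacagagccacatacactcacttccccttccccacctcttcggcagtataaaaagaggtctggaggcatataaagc
Gp6: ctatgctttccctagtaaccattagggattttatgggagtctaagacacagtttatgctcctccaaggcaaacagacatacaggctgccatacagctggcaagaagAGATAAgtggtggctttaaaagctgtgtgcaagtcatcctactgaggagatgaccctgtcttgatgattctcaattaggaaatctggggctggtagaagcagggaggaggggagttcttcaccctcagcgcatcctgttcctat
Mpig6b: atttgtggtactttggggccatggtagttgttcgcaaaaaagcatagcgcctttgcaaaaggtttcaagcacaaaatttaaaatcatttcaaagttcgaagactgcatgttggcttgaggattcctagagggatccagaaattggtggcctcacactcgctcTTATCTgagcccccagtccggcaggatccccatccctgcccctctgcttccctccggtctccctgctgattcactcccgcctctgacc
Myl9: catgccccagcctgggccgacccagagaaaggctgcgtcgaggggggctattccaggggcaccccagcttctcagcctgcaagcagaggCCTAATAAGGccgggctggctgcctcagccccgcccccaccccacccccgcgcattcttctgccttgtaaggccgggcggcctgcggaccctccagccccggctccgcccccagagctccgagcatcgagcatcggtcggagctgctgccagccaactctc
Itga2b: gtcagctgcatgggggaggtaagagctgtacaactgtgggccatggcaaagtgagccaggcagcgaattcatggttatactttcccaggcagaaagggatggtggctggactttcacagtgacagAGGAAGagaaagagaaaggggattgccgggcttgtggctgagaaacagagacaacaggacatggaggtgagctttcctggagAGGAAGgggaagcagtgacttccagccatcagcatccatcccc
Both strands were searched for the GATA motif in the form AGATAA and in the form TGATAA, for the ETS-type motif AGGAAG, and for the CArG box. None of these motifs contains another. Either GATA form stood in 2 of the 9 promoters (Gp6 and Mpig6b) and in 16.6% of 32851 mouse promoters of the same length. AGGAAG stood in 3 of the 9 (Pf4, Gp9 and Itga2b), against 29.5% of all promoters, and the CArG box in 2 of the 9 (Ppbp and Myl9), against 1.47%. These are matches of letters only. On chromosome 5, Ppbp and Pf4 are next to each other, between Cxcl5 and Cxcl3. Mpig6b overlaps G6bos and Gp1bb overlaps Septin5, and the sources used here do not state whether counting used the strand, so reads of these pairs may not be told apart.

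Cells were clustered with the 10 genes left out of the clustering, and clusters were named from marker genes, as X-like. The naming did use them: the megakaryocyte markers included all of the 10 genes but Myl9. Itga2b was also a marker of basophils or mast cells, and Pf4 and Itga2b of erythroid and megakaryocyte primed cells. The part of a gene's UMIs in a class named with it is therefore not independent of the name. The genes were then followed through a class called megakaryocyte-like, through primitive stem and progenitor-like cells and through the other cells. UMIs were summed over the cells of a class and given as CPM, the part of all UMIs of that class scaled to a total of 1000000. In sums of this kind, fewer cells of a type and less RNA per cell cannot be told apart. The megakaryocyte-like class, led by Pf4, Ppbp, Cavin2 and Treml1, held 511 HFD cells (3.36% of kept cells, 3.08 to 3.66%) and 568 ND cells (4.09%, 3.77 to 4.43%), a ratio of 0.82 (0.73 to 0.93). Judged by leading genes, its name holds for a minority of its cells. Most of them, 455 HFD cells and 515 ND cells, fell into 7 sub-clusters that were led by genes of other lineages, of progenitors or of the cell cycle, or had no name. Of the class's Itga2b UMIs, these 7 sub-clusters held 39.5% in HFD and 54.5% in ND. For each of the other genes, most UMIs of the class lay in 2 small sub-clusters.

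One of these was led by Myl9, Thbs1, Alox12 and Gas2l1, so the share of Myl9 in it is not independent of its description. Called platelet-gene-rich here, it held 21 HFD cells and 13 ND cells. Their median depth was 2436 UMIs in HFD and 1385 UMIs in ND, with a median of 761 genes in HFD and 480 genes in ND. It showed 23 of 24 megakaryocyte markers outside the 10 genes in each library, at 42670 CPM summed in HFD and 41382 CPM in ND. Of 28 stem and progenitor markers it showed 15 in HFD and 11 in ND, at 9127 CPM summed in HFD and 8644 CPM in ND, with Kit at 0 in both. The other, led by Timp3 and Serpine2, held 35 HFD cells and 40 ND cells with a median depth of 25883 UMIs in HFD and 19643 UMIs in ND. The antibody tag for CD117, the protein of Kit, had a median of 19 molecules per cell in HFD and 36 in ND in the Timp3/Serpine2 cells, and of 0 in both libraries in the platelet-gene-rich cells. The CD117 tag was thus higher at the median in the Timp3/Serpine2 cells of both libraries.

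**Figure D1:**
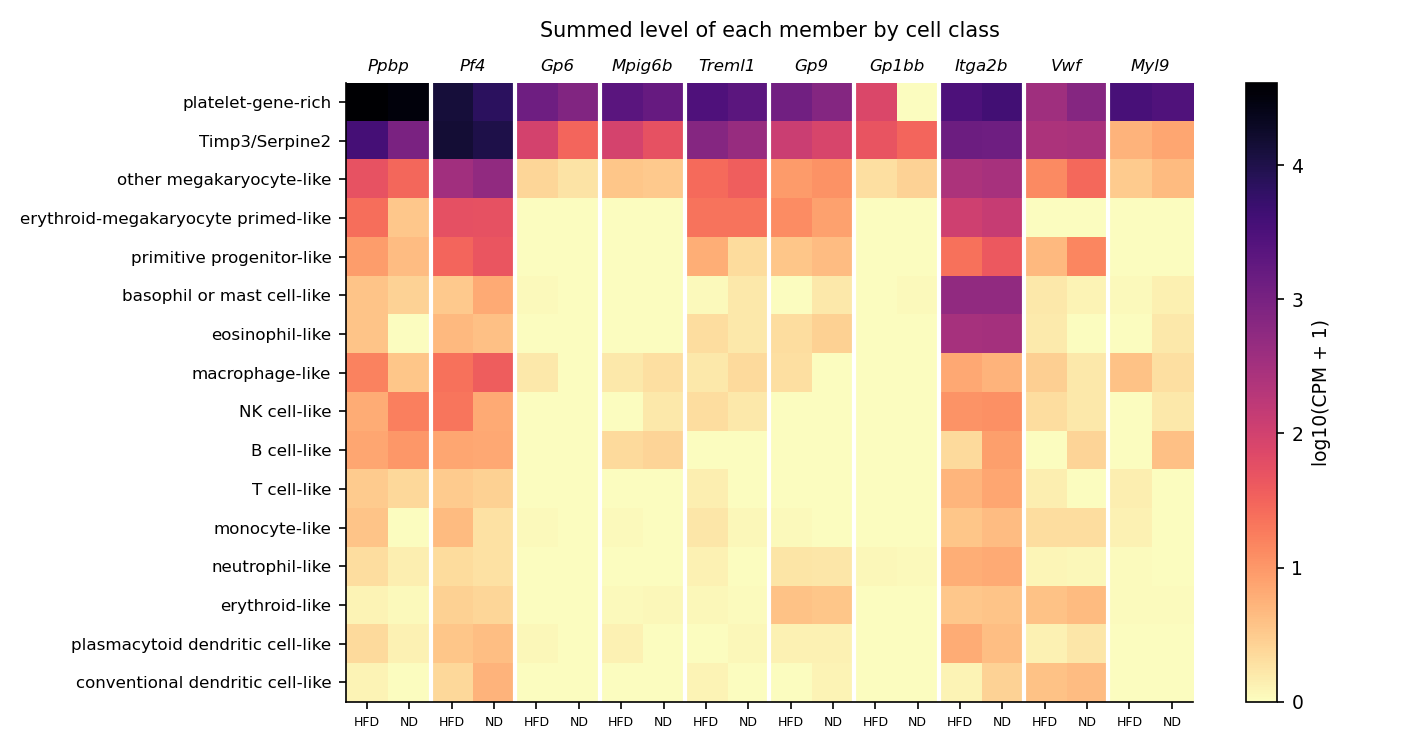
Level of each of the 10 genes by cell class, as the colour of log10(CPM + 1) of summed UMIs, with the HFD column left of the ND column for each gene. Ppbp reached 41304 CPM in HFD and 32908 CPM in ND in the platelet-gene-rich cells, and Itga2b was at 522 CPM in both libraries in basophil or mast cell-like cells.

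Over all deposited barcodes, before any filter or clustering, Ppbp had 8845 UMIs in HFD and 1981 UMIs in ND, which is 75.1 CPM in HFD and 16.8 CPM in ND. Pf4 had 16851 UMIs in HFD and 11769 UMIs in ND. Itga2b had 8642 UMIs in HFD and 8724 UMIs in ND. The chemokines thus differed between the libraries by unequal amounts and Itga2b differed little. Of the UMIs in kept cells, the megakaryocyte-like class held 97.9% in HFD and 95.7% in ND for Ppbp, 98.0% in HFD and 96.6% in ND for Pf4, but 32.6% in HFD and 31.0% in ND for Itga2b.

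In megakaryocyte-like cells, 8 of the 10 genes were at least 1.5-fold higher in HFD and 0 were at least 1.5-fold lower. Among all 9836 genes with at least 50 UMIs in the class, 2.72% were that much higher and 2.4% that much lower. The choice of the genes used this comparison, so nothing is read from the count. The median log2 ratio of HFD over ND was 1.08 for the 10 genes and -0.01 for all genes.

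Of the chemokines, Ppbp had 8617 UMIs and 1634 CPM in HFD, against 1871 UMIs and 332 CPM in ND, a log2 ratio of 2.30 (2.23 to 2.37). Pf4 had 16454 UMIs and 3120 CPM in HFD, against 11222 UMIs and 1989 CPM in ND, a log2 ratio of 0.65 (0.61 to 0.68). Both were higher in HFD, and the 2 neighbours on chromosome 5 differed in size, with 0.524 Ppbp UMIs per Pf4 UMI in HFD and 0.167 in ND.

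Of the receptors, Gp6 had 248 UMIs (47.0 CPM) in HFD, against 52 UMIs (9.22 CPM) in ND, a log2 ratio of 2.35 (1.91 to 2.81). Mpig6b had 354 UMIs (67.1 CPM) in HFD, against 99 UMIs (17.5 CPM) in ND, a log2 ratio of 1.94 (1.61 to 2.27). Treml1 had 1119 UMIs (212 CPM) in HFD, against 588 UMIs (104 CPM) in ND, a log2 ratio of 1.03 (0.88 to 1.17). These 3 receptors were all higher in HFD, the activating collagen receptor and the inhibitory receptor alike. Gp9 had 289 UMIs in HFD, against 140 UMIs in ND, a log2 ratio of 1.14 (0.85 to 1.44). Gp1bb, its partner, had 57 UMIs in HFD, against 33 UMIs in ND, a log2 ratio of 0.89 (0.24 to 1.55). The intervals of the 2 subunits overlap.

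Itga2b had 2673 UMIs (507 CPM) in HFD, against 2581 UMIs (457 CPM) in ND, a log2 ratio of 0.15 (0.07 to 0.23). Vwf had 330 UMIs (62.6 CPM) in HFD, against 381 UMIs (67.5 CPM) in ND, a log2 ratio of -0.11 (-0.33 to 0.11). Neither reached 1.5-fold in either direction, and the interval of Vwf spans 0. Both changed sign among the alternatives, Itga2b between -0.20 and 0.40 and Vwf between -0.69 and 0.14. Myl9 had 421 UMIs (79.8 CPM) in HFD, against 104 UMIs (18.4 CPM) in ND, a log2 ratio of 2.11 (1.80 to 2.44). Among the 6668 genes with at least 200 UMIs that were ranked by this ratio, Gp6 stood at place 2, Ppbp at 3, Myl9 at 4 and Mpig6b at 5, with Gp9 at 25, Treml1 at 29, Pf4 at 83, Itga2b at 1275 and Vwf at 4868. At 1.5-fold, a log2 ratio of 0.58, Pf4 was the member just above the threshold and Itga2b the one just below it.

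The top of that ranking was Hspa1b, a heat shock gene, with 491 UMIs in HFD and 19 UMIs in ND (log2 ratio 4.79). Of these, 467 HFD UMIs and 16 ND UMIs lay outside both small sub-clusters, and it was at 0 UMIs in the platelet-gene-rich cells of both libraries. Most of its UMIs were therefore in other cells than those of Myl9, Mpig6b and Gp6. At the other end of the ranking stood Mt2 at -1.05, Insig1 at -0.96, H1f0 at -0.95, Plcg1 at -0.86 and Kcnq1ot1 at -0.82, all log2 ratios.

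**Figure D2:**
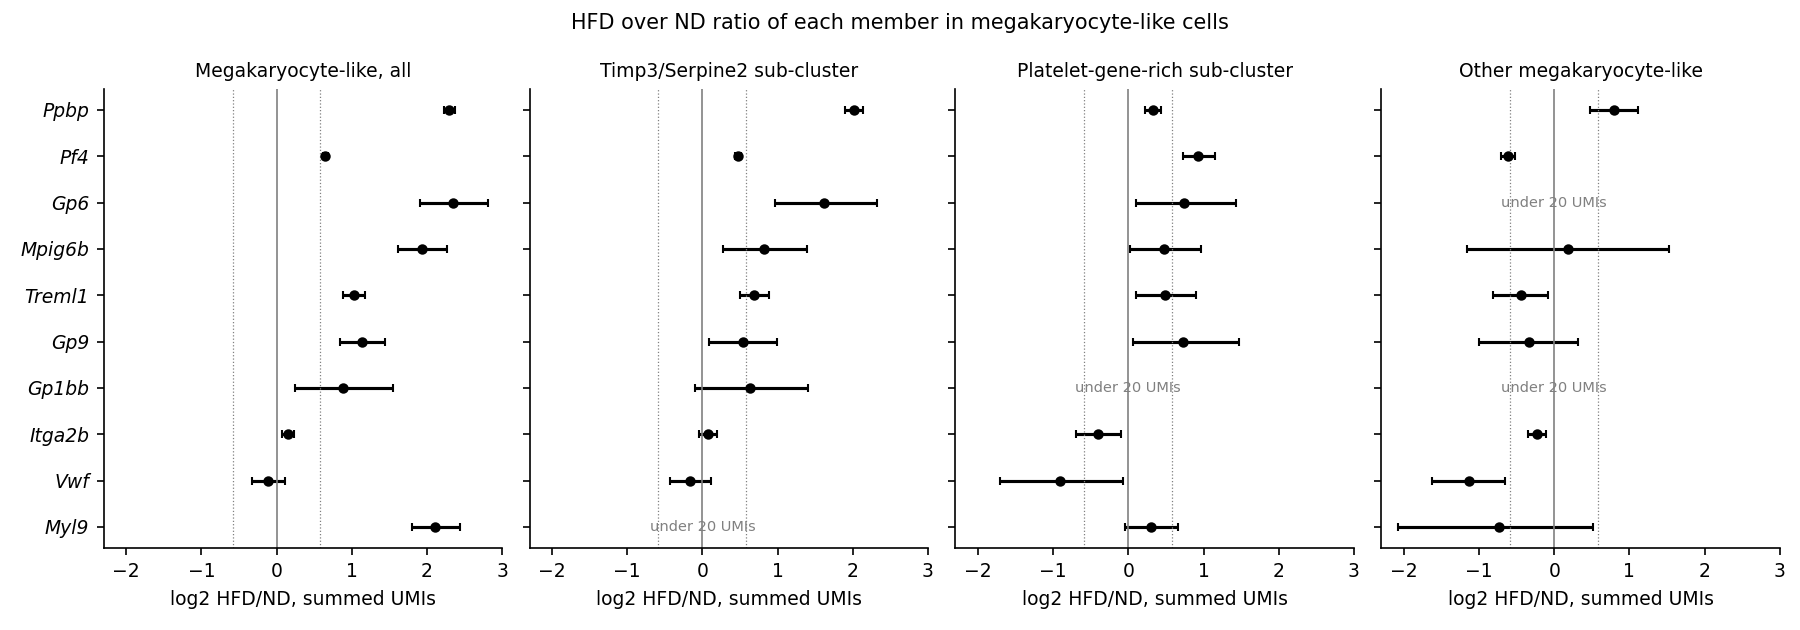
Log2 ratio of HFD over ND of summed UMIs for each of the 10 genes, in all megakaryocyte-like cells and in its 3 divisions, with 95% counting intervals as bars and dotted lines at 1.5-fold. Ppbp was at 2.30 in the whole class, 2.02 in the Timp3/Serpine2 cells, 0.33 in the platelet-gene-rich cells and 0.79 in the rest, and genes with under 20 UMIs in a division are left blank.

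The ratios over the whole class rested on few cells. A total of 4 HFD cells held 50% of the Ppbp UMIs of the class, against 5 cells in ND, and for Myl9 it was 3 HFD cells and 4 ND cells. For Itga2b it was 22 HFD cells and 45 ND cells. The share of cells with at least 1 UMI differed less than the sums: Ppbp was seen in 14.5% of HFD cells (11.5 to 17.8%) and 10.6% of ND cells (8.16 to 13.4%), and Pf4 in 26.8% of HFD cells and 29.8% of ND cells. Without the 5 cells of each library with the most UMIs of these genes, the log2 ratio of Ppbp was 1.49, that of Myl9 1.18 and that of Mpig6b 1.28, a way of counting chosen after seeing the data. As a mean over cells of each cell's own CPM, which gives every cell the same weight, Ppbp stood at 0.71 and Myl9 at 0.86. Without the deepest 5% of cells of each library, Pf4 stood at -0.08 and Ppbp at 1.65.

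The platelet-gene-rich cells held 56.9% of the Ppbp UMIs of the class in HFD and 51.7% in ND. For Myl9 they held 96.9% in HFD and 78.8% in ND, for Mpig6b 73.2% in HFD and 46.5% in ND, and for Gp6 62.5% in HFD and 44.2% in ND. The 4 genes with the largest ratios were thus the ones read most in these cells in HFD. Pf4 lay elsewhere, with 9.70% in HFD and 1.84% in ND in these cells and 81.5% in HFD and 75.9% in ND in the Timp3/Serpine2 cells. All UMIs of the platelet-gene-rich cells together, of any gene, were 118656 in HFD (2.25% of the class's UMIs) and 29385 in ND (0.521%). Their larger part of the class in HFD came with both more cells and a greater depth per cell.

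**Figure D3:**
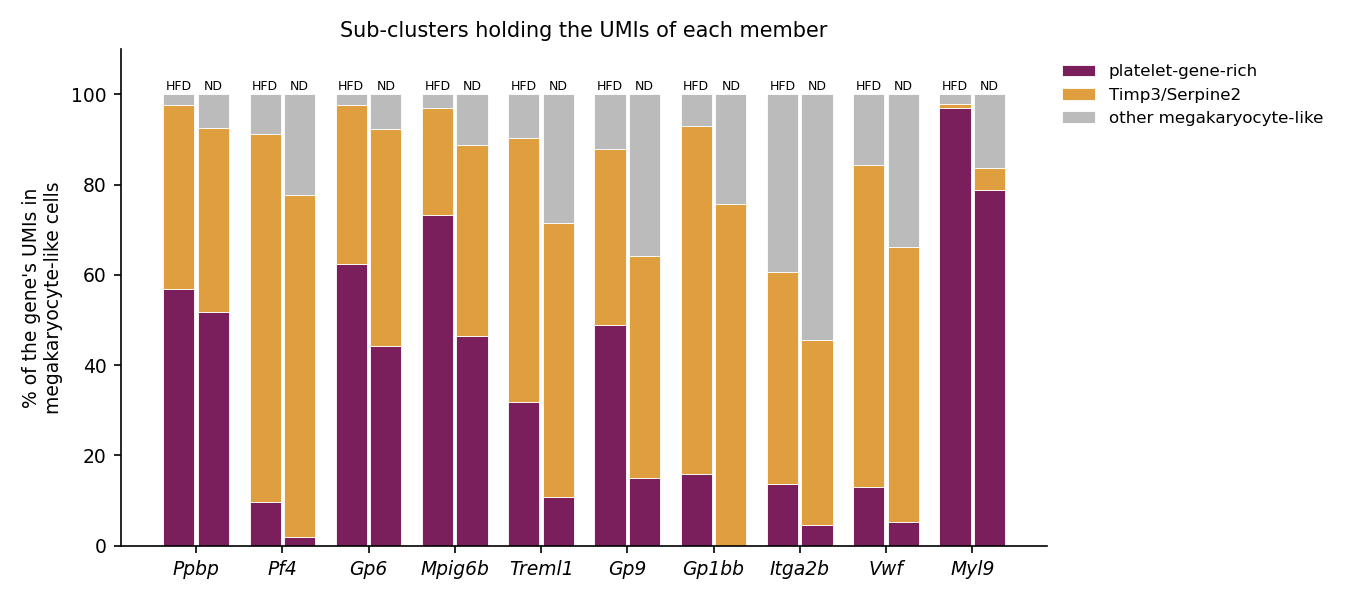
Share of each gene's UMIs in megakaryocyte-like cells that lay in the platelet-gene-rich sub-cluster, the Timp3/Serpine2 sub-cluster and the other cells of the class, in percent, with the HFD bar left of the ND bar for each gene. Myl9 sat mostly in the platelet-gene-rich cells (96.9% in HFD and 78.8% in ND) and Pf4 mostly in the Timp3/Serpine2 cells (81.5% in HFD and 75.9% in ND).

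On the CPM scale of the platelet-gene-rich cells themselves, the libraries were closer for the 4 genes with the largest ratios. For Pf4, Itga2b and Vwf they were further apart than over the whole class, as given below. Ppbp was at 41304 CPM in HFD, against 32908 CPM in ND, a log2 ratio of 0.33 (0.23 to 0.43). The median over single cells ran the other way, at 31037 CPM in HFD and 46263 CPM in ND, so the direction depends on whether molecules or cells are weighted alike. Myl9 was at 3439 CPM in HFD, against 2791 CPM in ND (0.30, -0.04 to 0.66), and Mpig6b at 2183 CPM in HFD, against 1565 CPM in ND (0.48, 0.02 to 0.96). Gp6 was at 1306 CPM (155 UMIs) in HFD, against 783 CPM (23 UMIs) in ND, with a log2 ratio of 0.74 (0.10 to 1.44). Each of the 4 genes that had led the class had a smaller log2 ratio here than over the whole class.

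Pf4 was at 13451 CPM in HFD, against 7044 CPM in ND, a log2 ratio of 0.93 (0.72 to 1.15), and Gp9 at 1188 CPM in HFD, against 715 CPM in ND (0.73, 0.07 to 1.47). Treml1 was at 3009 CPM in HFD, against 2144 CPM in ND (0.49, 0.10 to 0.90). Itga2b was at 3093 CPM in HFD, against 4084 CPM in ND (-0.40, -0.70 to -0.09), and Vwf at 362 CPM in HFD, against 681 CPM in ND (-0.91, -1.71 to -0.07). The values of Itga2b and Vwf were lower in HFD, but not under every alternative. Itga2b stood at 0.21 (0.10 to 0.32) in the clustering of all deposited cells, and Vwf at 0.42 (-1.19 to 2.27) with cells thinned to 1000 UMIs, which leaves few Vwf UMIs. Gp1bb had 9 UMIs in HFD and 0 UMIs in ND. Of the 9 genes with at least 50 UMIs, 3 were at least 1.5-fold higher in HFD (Pf4, Gp6 and Gp9) and 1 was lower (Vwf), where 19.7% of 462 genes were higher and 15.4% lower.

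Depth differed between the libraries in these cells. In HFD, 4 cells had over 10000 UMIs, with 28160, 22808, 16697 and 12666 UMIs, and they carried 1402, 1252, 564 and 548 Ppbp UMIs. Together they held 3766 Ppbp UMIs, 76.8% of those in the HFD platelet-gene-rich cells. In ND, 0 cells had over 10000 UMIs, and the deepest cell, with 9181 UMIs, carried 382 Ppbp UMIs, 39.5% of those in ND. In each of these 5 cells the share of Ppbp among the cell's own UMIs was similar, between 33779 CPM and 54893 CPM in the 4 HFD cells and 41608 CPM in the ND cell. In cells of at most 5000 UMIs, 16 in HFD and 12 in ND, Ppbp was at 31998 CPM in HFD, against 28955 CPM in ND, with a log2 ratio of 0.14 (-0.00 to 0.29). Myl9 stood at 0.66 (0.18 to 1.16) there, Itga2b at -0.81 (-1.26 to -0.36) and Pf4 at 0.32 (0.04 to 0.61). The extent of the sub-cluster depends on the clustering: over the alternatives the log2 ratio of Ppbp in it ran between -0.21, as a mean over cells, and 2.09, in a clustering that gave a broader sub-cluster.

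Markers of other cells were read in the same cells. The 25 neutrophil markers summed to 817 CPM in HFD, with 12 detected, and to 102 CPM in ND, with 3 detected. The 24 erythroid markers summed to 2747 CPM in HFD (13 detected) and 1804 CPM in ND (8 detected). Monocyte markers summed to 1121 CPM in HFD (6 of 20 detected) and 1055 CPM in ND (2 detected), conventional dendritic cell markers to 843 CPM in HFD (6 of 18) and 1225 CPM in ND (2), and plasma cell markers to 1053 CPM in HFD (5 of 16) and 851 CPM in ND (4). Macrophage markers summed to 59.0 CPM in HFD (5 of 20) and 34.0 CPM in ND (1), with C1qa, C1qb and C1qc at 0 in both. T cell markers summed to 33.7 CPM in HFD (2 of 19) and 34.0 CPM in ND (1), with Cd3e, Cd3d and Cd3g at 0 in both. The monocyte list includes F13a1, which is also on the list of platelet granule genes used here, so its sum does not single out monocytes. The part of attached cells or of free RNA in the values of the 10 genes was not tested.

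In the Timp3/Serpine2 cells, Ppbp had 3505 UMIs (3743 CPM) in HFD, against 766 UMIs (925 CPM) in ND, a log2 ratio of 2.02 (1.903 to 2.131). Few cells held most of these UMIs in HFD. The 5 HFD cells with over 300 Ppbp UMIs had 1171, 634, 475, 391 and 357 UMIs, together 3028, which is 86.4% of the Ppbp UMIs of the HFD cells. In ND, 0 cells had over 300 Ppbp UMIs, and the 2 highest cells had 279 and 96. Leaving out the cells with over 100 Ppbp UMIs, 5 in HFD and 1 in ND, 477 Ppbp UMIs remained in HFD and 487 in ND. That cut uses the compared value itself, so it tends to draw the libraries together by construction. These 5 HFD cells were deep, from 25883 to 58057 UMIs, and each held between 970 and 1364 Pf4 UMIs, while the highest ND cell held 842 Pf4 UMIs at a depth of 33043 UMIs. The median cell had Ppbp at 431 CPM in HFD and 177 CPM in ND.

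**Figure D4:**
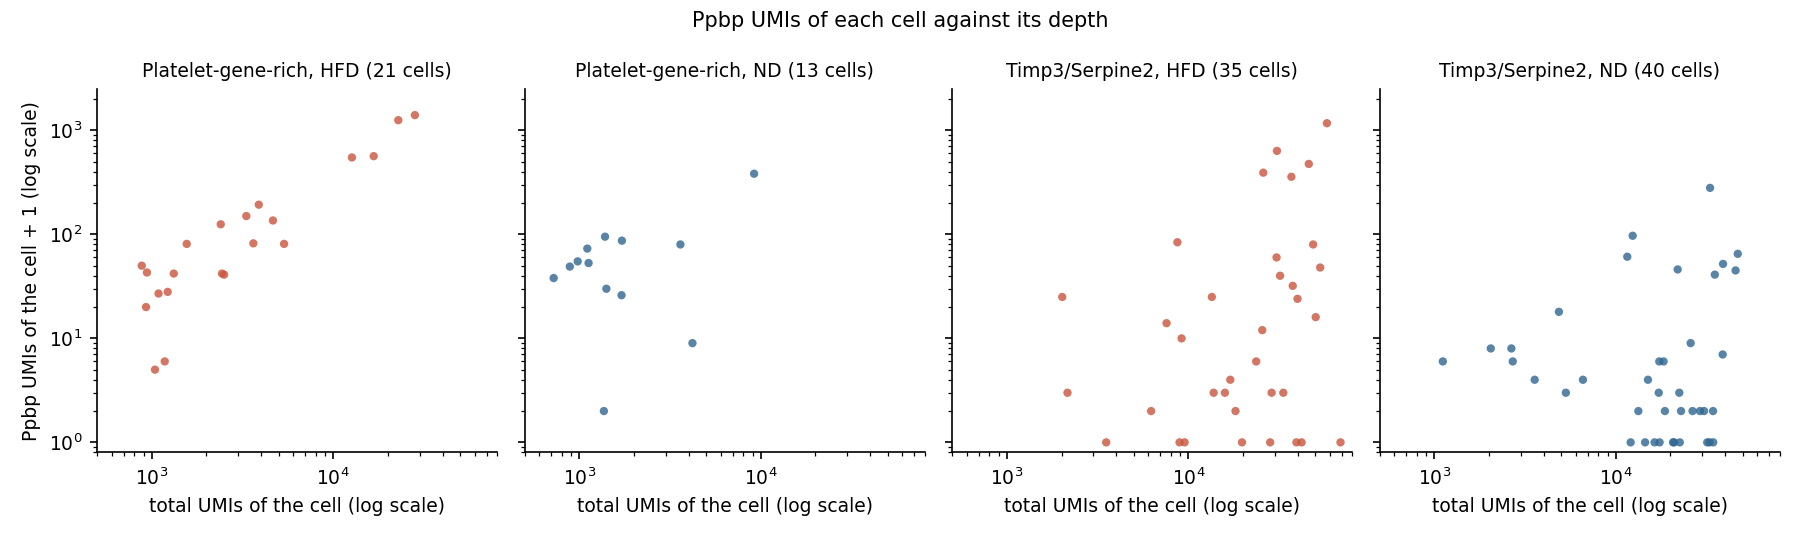
Ppbp UMIs of each cell (plus 1, log scale) against the total UMIs of that cell (log scale), in the platelet-gene-rich and the Timp3/Serpine2 sub-clusters, with HFD left of ND in each pair. The 4 platelet-gene-rich HFD cells over 10000 UMIs and the 5 Timp3/Serpine2 HFD cells over 300 Ppbp UMIs stand at the upper right, where the ND panels hold 1 cell each near 382 and 279 Ppbp UMIs.

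Pf4 had 13416 UMIs (14327 CPM) in HFD, against 8515 UMIs (10284 CPM) in ND, in the Timp3/Serpine2 cells, a log2 ratio of 0.48 (0.44 to 0.52), and its cell medians were 9422 CPM in HFD and 8201 CPM in ND. It was seen in every cell of this sub-cluster in both libraries. Gp6 had 87 UMIs in HFD, against 25 UMIs in ND (1.62, 0.97 to 2.33), in 13 HFD cells and 8 ND cells. Mpig6b had 84 UMIs in HFD, against 42 UMIs in ND (0.82, 0.27 to 1.39), and Treml1 had 654 UMIs in HFD, against 358 UMIs in ND (0.69, 0.50 to 0.88). For Mpig6b, 1 HFD cell held 33 of the 84 UMIs, the share of cells with a UMI was 45.7% in HFD and 45.0% in ND, and the mean over cells ran the other way, at 60.9 CPM in HFD and 65.5 CPM in ND. Itga2b was at 1336 CPM in HFD and 1274 CPM in ND (0.07, -0.05 to 0.19), and Vwf at 251 CPM in HFD and 280 CPM in ND (-0.16, -0.43 to 0.11). Myl9 had 4 UMIs in HFD and 5 UMIs in ND, which is too few for a ratio. A total of 5 of the 9 genes with at least 50 UMIs were at least 1.5-fold higher in HFD and 0 lower, where 5.06% of 5174 genes were higher and 5.91% lower.

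The order of the levels between the 2 sub-clusters set Myl9 apart from Pf4 in both libraries. Myl9 was 805-fold higher in the platelet-gene-rich than in the Timp3/Serpine2 cells in HFD and 462-fold in ND, though the lower level rests on 4 UMIs in HFD and 5 in ND. For Mpig6b the same fold was 24.3 in HFD and 30.9 in ND, for Gp6 14.1 in HFD and 25.9 in ND, and for Ppbp 11.0 in HFD and 35.6 in ND. Pf4 was the exception, at 0.94-fold in HFD and 0.69-fold in ND. The number of Ppbp UMIs per Pf4 UMI was accordingly 3.07 in HFD and 4.67 in ND in the platelet-gene-rich cells and 0.261 in HFD and 0.0900 in ND in the Timp3/Serpine2 cells.

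In the rest of the class, the direction changed for several genes. Pf4 had 1442 UMIs (342 CPM) in HFD, against 2500 UMIs (523 CPM) in ND, a log2 ratio of -0.61 (-0.71 to -0.52). Of these UMIs, 10 HFD cells and 13 ND cells held 50%, and the highest cell held 126 in HFD and 220 in ND. Vwf had 52 UMIs in HFD, against 129 UMIs in ND (-1.13, -1.62 to -0.65), and Treml1 had 108 UMIs in HFD, against 167 UMIs in ND (-0.45, -0.81 to -0.09). Ppbp stayed higher in HFD, with 211 UMIs in HFD, against 138 UMIs in ND (0.79, 0.48 to 1.11), of which single cells held up to 70 in HFD and 39 in ND. Of 6 genes measured, 1 was at least 1.5-fold higher (Ppbp) and 2 lower (Pf4 and Vwf), where 1.58% of 9515 genes were higher and 2.47% lower. One of the 7 sub-clusters of the rest, led by stem and progenitor genes, held 42 HFD cells and 73 ND cells. It had 739 Pf4 UMIs (1984 CPM) in HFD, against 1122 UMIs (1723 CPM) in ND, a log2 ratio of 0.20 (0.07 to 0.34). By CPM, Pf4 thus ran the other way there than over the rest. Pf4 was seen in 76.2% of its HFD cells and 80.8% of its ND cells, and Itga2b in 92.9% in HFD and 91.8% in ND.

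Other genes of the platelet lineage were grouped by function, and a list is given by how many of its measured genes passed 1.5-fold in the class. The share of all genes that passed it there was 2.72% higher and 2.4% lower, as above. Of 24 receptor genes, 9 were higher in HFD and 0 lower, with a median log2 ratio of 0.48, led by Cd226, an adhesion receptor, at 2.58 (145 UMIs in HFD and 26 in ND), Ly6g6f at 2.34 (85 in HFD and 18 in ND) and Clec1b, the podoplanin receptor, at 1.86 (648 in HFD and 191 in ND). Of 36 cytoskeletal genes, 9 were higher and 0 lower (median 0.26), led by Cald1 at 1.75, Tpm4 at 1.26 and Parvb at 1.01. Of 30 granule genes, 7 were higher and 0 lower (median 0.12), led by Pdgfa at 2.46, the serotonin transporter Slc6a4 at 1.76 and thrombospondin Thbs1 at 1.71. Of 39 genes of receptor signalling, 4 were higher and 0 lower (median 0.12), with the platelet lipoxygenase Alox12 at 1.71, Src at 1.14 and Grap2 at 0.87.

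In the other lists the counts were small. They lay near the share over all genes for transcription factors and early progenitor genes. For chemokines, interferon genes and heat shock genes they lay above it, but rested on 1 or 2 genes each. Of 23 megakaryocyte transcription factors, 0 were 1.5-fold higher and 0 lower, with a median log2 ratio of -0.13. Of 26 genes of early and cycling megakaryocyte progenitors, 1 was higher, Slamf1 at 0.73, and 0 lower. Of 3 measured chemokines, 1 was higher, Cxcl5 at 1.14 (66 UMIs in HFD and 32 in ND), which lies next to Ppbp on chromosome 5. Of 18 type I interferon genes, 2 were higher, Isg15 at 1.27 and Rtp4 at 0.97, and of 11 heat shock genes, 2 were higher, Hspa1b at 4.79 and Hspa1a at 3.46.

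Within the platelet-gene-rich cells, Alox12 had 565 UMIs (4762 CPM) in HFD, against 156 UMIs (5309 CPM) in ND, a log2 ratio of -0.16 (-0.42 to 0.11). Thbs1 stood there at -0.24 (-0.49 to 0.02). Both intervals span 0, whereas both genes were among those leading their lists in the whole class. Of 14 measured granule genes in these cells, 3 were higher in HFD and 0 lower (median 0.07), with Clu, clusterin, at 0.83. Of 28 cytoskeletal genes, 8 were higher and 2 lower, with Tuba4a, an alpha tubulin, at 1.69 (1.10 to 2.34) and Tpm1 at -0.68 (-1.08 to -0.27). Of 18 receptors, 3 were higher and 1 lower, Itga6, a laminin receptor chain, at -1.24 (-1.55 to -0.92). Of 6 transcription factors measured, 0 were higher and 3 lower, Gata2 at -1.34 (-2.07 to -0.59), Mafg at -1.09 (-1.91 to -0.23) and Fli1 at -0.75 (-1.49 to 0.04). With 15.4% of all genes lower and 19.7% higher in these few cells, counts of this size carry little. In the Timp3/Serpine2 cells, 8 of 35 cytoskeletal genes were higher and 0 lower, and of 20 genes of early progenitors 0 were higher and 3 lower, Cd34 at -1.62, Ccne2 at -1.10 and Myc at -1.06.

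Across 17 cell classes in both libraries, the genes outside the 10 whose levels ran most like their mean were Alox12 (Pearson r = 0.956 over 34 class-by-library profiles), Cavin2 (0.955), Timp3 (0.952), Pde3a (0.947), Kcnj5 (0.945), Gm42517 (0.936), Fhl1 (0.916), Rbpms2 (0.913), Gm10419 (0.902) and Cald1 (0.902). Of the 10 themselves, leaving out Gp1bb, which had under 200 UMIs in the class, Treml1 ran closest to the mean (0.974) and Itga2b least (0.652). Each of them is part of that mean, unlike the genes outside the 10. These correlations describe profiles that share libraries and depth and carry no test.

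Primitive stem and progenitor-like cells, found within the cells named HSPC-like, numbered 122 in HFD and 137 in ND. Gp6, Mpig6b, Myl9 and Gp1bb were at 0 UMIs in these cells and in all 518 HFD and 588 ND HSPC-like cells, which allows up to 0.579% of HFD cells and 0.510% of ND cells to carry a UMI. Itga2b had 17 UMIs (21.7 CPM) in HFD, against 36 UMIs (41.2 CPM) in ND, a log2 ratio of -0.92 (-1.85 to -0.05). Pf4 had 23 UMIs (29.4 CPM) in HFD, against 39 UMIs (44.6 CPM) in ND, a log2 ratio of -0.60 (-1.41 to 0.18). Vwf had 3 UMIs in HFD and 12 UMIs in ND, of which 1 ND cell held 4.

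The other genes had few UMIs in the primitive cells of both libraries. Ppbp had 6 UMIs in HFD and 3 UMIs in ND, each in a cell of its own, Treml1 had 4 in HFD and 1 in ND, and Gp9 had 2 in HFD and 3 in ND. The 2 genes with at least 50 UMIs, Pf4 and Itga2b, were both at least 1.5-fold lower in HFD, where 4.66% of 5751 genes were that much higher and 3.81% that much lower. The sum of the 10 genes was 55 UMIs in HFD and 94 UMIs in ND, a log2 ratio of -0.61 (-1.12 to -0.12). With each cell thinned to 1000 UMIs, Pf4 stood at 0.17, and with the stricter cell filter Itga2b stood at 0.13, so neither direction held in each way of counting. In the 47 HFD cells and 60 ND cells named erythroid and megakaryocyte primed-like, Itga2b had 35 UMIs in HFD and 54 in ND (105 CPM in HFD and 128 CPM in ND), Pf4 had 18 in HFD and 22 in ND, and Ppbp had 8 in HFD, all in 1 cell, and 1 in ND.

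Outside the lineage, in 14185 HFD cells and 12734 ND cells, Itga2b was read mostly in 1 class. It had 4294 UMIs (522 CPM) in HFD and 4445 UMIs (522 CPM) in ND in basophil or mast cell-like cells, a log2 ratio of 0.00 (-0.06 to 0.06), and was seen in 85.5% of HFD cells and 85.1% of ND cells there. That is 52.3% of its UMIs in all kept HFD cells and 53.4% in ND. The other 9 genes summed to 673 UMIs in HFD and 671 UMIs in ND over all these cells, 6.71 CPM in HFD and 6.82 CPM in ND, with a log2 ratio of -0.02 (-0.18 to 0.13). In this clustering the total was level between the libraries, at a small part of the level in the lineage. How much of it is platelet RNA carried over into other cells was not tested. Cells with at least 1 such UMI were 489 in HFD and 433 in ND, those with at least 5 were 10 in HFD and 12 in ND.

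The 9 genes did not share this balance. Ppbp had 164 UMIs (1.64 CPM) in HFD, against 78 UMIs (0.793 CPM) in ND, a log2 ratio of 1.04 (0.65 to 1.45), in 105 HFD cells and 37 ND cells. Pf4 had 268 UMIs in HFD, against 317 UMIs in ND (-0.27, -0.51 to -0.03). Of the 5 genes with at least 50 UMIs, 1 was at least 1.5-fold higher (Ppbp) and 0 lower, where 2.83% of 13986 genes were higher and 4% lower. The number of Ppbp UMIs per Pf4 UMI was 0.612 in HFD and 0.246 in ND. It was 0.524 in HFD and 0.167 in ND in the megakaryocyte-like class, which pools unlike sub-clusters, and higher in the platelet-gene-rich cells. The source of the UMIs in other cells was not tested. Gp9 and Vwf, with 78 and 97 UMIs in HFD and 88 and 133 UMIs in ND, lay in erythroid-like cells for the largest part, where Gp9 had 49 UMIs in HFD and 62 in ND and Vwf had 49 in HFD and 91 in ND.

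T cell-like and B cell-like cells, which are not known to express either chemokine, give a range for carry-over. In T cell-like cells Ppbp was seen in 0.780% of HFD cells and 0.480% of ND cells (5 UMIs in HFD and 3 in ND) and Pf4 in 0.780% of HFD cells and 0.640% of ND cells, at a median depth of 3340 UMIs in HFD and 3398 UMIs in ND. In B cell-like cells both were seen in 1.49% of HFD cells and 0.752% of ND cells, at 2061 UMIs in HFD and 2188.5 UMIs in ND. NK cell-like cells were a further background class, with Ppbp in 0.889% of HFD and 0.480% of ND cells. Pf4 was seen in 1.78% of HFD and 1.44% of ND cells there. By CPM, NK cell-like Ppbp stood at 5.40 (1.75 to 12.6) in HFD and 16.2 in ND, and Pf4 at 20.5 in HFD. In each of these 3 values 1 cell held most of the UMIs. Macrophage-like cells, at a median of 1200 UMIs in HFD and 1132 UMIs in ND, had Ppbp in 1.25% of HFD cells and 0.407% of ND cells. In HFD this share lay between those of T cell-like and B cell-like cells, and in ND below both. By CPM, macrophage-like Ppbp in HFD, at 14.8 (10.9 to 19.7), was above T cell-like cells, at 2.13 (0.691 to 4.96), while its interval overlaps that of B cell-like cells, at 6.19 (2.01 to 14.4). Whether it is carried over was not tested. Pf4 was in 3.68% of macrophage-like HFD cells and 5.59% of ND cells, above the shares in T cell-like, B cell-like and NK cell-like cells.

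By UMIs, Ppbp in macrophage-like cells had 47 (14.8 CPM) in HFD, against 8 (2.56 CPM) in ND, a log2 ratio of 2.53 (1.43 to 3.82), and 1 HFD cell held 10 of them. Pf4 had 71 (22.3 CPM) in HFD, against 117 (37.5 CPM) in ND, a log2 ratio of -0.75 (-1.19 to -0.31), in 56 HFD cells and 96 ND cells. Of these 2 measured genes 1 was at least 1.5-fold higher (Ppbp) and 1 lower (Pf4), where 4.21% of 8306 genes were at least 1.5-fold higher and 2.58% lower. In monocyte-like cells Ppbp had 24 UMIs in 16 HFD cells (0.929%) and 0 UMIs in 1008 ND cells, which allows up to 0.298% of them, and Pf4 had 32 UMIs in HFD and 5 in ND. With the ND class set at a floor of 3 UMIs, Ppbp was 5.01-fold higher in HFD. That value leaves out the counting error of the HFD UMIs and is not a lower limit. The monocyte-like share of HFD cells lay between those of T cell-like and B cell-like cells. Neutrophil-like cells, 3492 in HFD and 2455 in ND at a median depth of 3895 UMIs in HFD and 4581 UMIs in ND, had Ppbp in 0.601% of HFD cells and 0.326% of ND cells. That is below the T cell-like and the B cell-like shares in both libraries, but within the T cell-like intervals (0.254 to 1.81% in HFD and 0.0991 to 1.40% in ND). Whether these UMIs are carried over was not tested. Ppbp UMIs there numbered 25 in HFD and 8 in ND, and Pf4 UMIs 27 in HFD and 17 in ND.

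Single cells set the values in some small classes. NK cell-like cells had 5 Ppbp UMIs in HFD and 26 in ND, of which 1 ND cell held 25, and 19 Pf4 UMIs in HFD, of which 1 cell held 16, and 9 in ND. In basophil or mast cell-like cells Pf4 had 19 UMIs in HFD and 47 in ND, of which 1 ND cell held 28. Leaving out the 5 cells of each library with the most UMIs of these genes, Ppbp in all other cells stood at a log2 ratio of 1.58 (1.08 to 2.10).

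**Figure D5:**
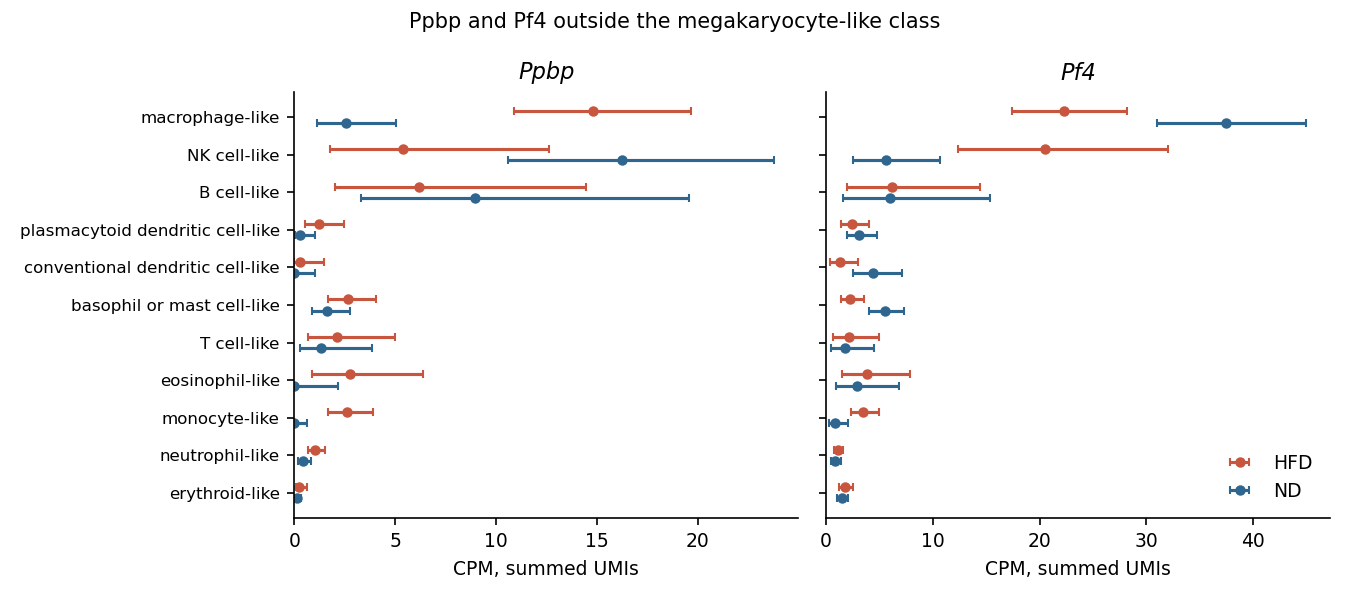
Ppbp (left) and Pf4 (right) in classes outside the megakaryocyte lineage, in CPM of summed UMIs with 95% Poisson intervals, and HFD above ND in each class. Macrophage-like cells had Ppbp at 14.8 CPM in HFD and 2.56 CPM in ND and Pf4 at 22.3 CPM in HFD and 37.5 CPM in ND.

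Barcodes that the filter removed, 1632 in HFD and 2515 in ND, were read as well, since platelets hold little RNA. Ppbp had 44 UMIs (24.9 CPM) in HFD, against 21 UMIs (7.53 CPM) in ND, a log2 ratio of 1.73 (0.94 to 2.55), and was seen in 1.84% of HFD and 0.557% of ND barcodes. Pf4 had 50 UMIs (28.3 CPM) in HFD, against 80 UMIs (28.7 CPM) in ND (-0.02, -0.56 to 0.51), of which 1 ND barcode held 37. Among those under 200 genes, 1238 in HFD and 2000 in ND, the highest barcode held 3 Ppbp UMIs in each library. The removed barcodes thus held few molecules of these genes next to the 4901 Ppbp UMIs in HFD and 967 in ND of the platelet-gene-rich cells.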

How the data were processed

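Bone marrow from 1 HFD and 1 ND library was profiled by BD Rhapsody whole-transcriptome sequencing with 5 antibody tags. The authors deposited raw molecule counts per cell and gene, and the file headers name the maker's WTA pipeline for Rhapsody, version 1.9.1. Genome build and use of strand: not given in the sources used here. Columns of other samples numbered 0. A cell was kept from 200 genes upward and up to 25% mitochondrial UMIs, and 436 HFD and 412 ND doublets, found with Scrublet in scanpy 1.11.5, were removed. The counts of both libraries were scaled to 10000 per cell, and 2000 variable genes without the 10 genes gave 30 components, 15 neighbours and Leiden clusters at resolution 1.0 (igraph 0.11.9). Clusters were named from at least 3 markers among their top 50 genes, with marker lists that included all of the 10 genes but Myl9. HSPC-like cells were sub-clustered at resolution 1.0 and megakaryocyte-like cells at 0.5. Raw counts were summed per class and library. With 1 library per diet no test was made. Intervals (95%) are Clopper-Pearson for shares, exact binomial for ratios and exact Poisson for CPM (scipy 1.17.1), and the ratio was checked on simulated counts. A gene was counted as higher or lower at 1.5-fold with at least 50 UMIs over both libraries. Named besides the 10 genes were the 3 highest and 3 lowest past 1.5-fold of each list, the 5 highest and 5 lowest of all genes with at least 200 UMIs (leaving aside mitochondrial and ribosomal genes, globins, antigen receptor genes and numbered models), and the 10 genes most like the mean profile. Of these, the text gives those that lead. The genes, lists and alternatives were chosen with earlier results of these data known. Alternatives changed the filter, doublets, resolution, clustering genes, thinning, weighting and UMI minimum.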

Additional observations from a re-analysis of the deposited data

Results flagged for a closer look

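Pf4 stood in opposite directions in different classes: its log2 ratio of HFD over ND was 0.65 in megakaryocyte-like cells, -1.26 in basophil or mast cell-like cells and -0.75 in macrophage-like cells. The difference between the classes was not tested. In basophil or mast cell-like cells 1 ND cell held 28 of the 47 ND UMIs.

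The antibody tag named R-Phycoerythrin, whose target the labels do not name, had a median of 234 molecules per platelet-gene-rich cell in HFD and 189 in ND. Its median was 26 in HFD and 20.5 in ND in Timp3/Serpine2 cells, 1 in both libraries over all kept cells, and 13 in HFD and 21 in ND in barcodes removed by the filter. Its part in the values of the 10 genes was not tested.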

How the results depend on the processing

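The log2 ratio of the summed 10 genes in megakaryocyte-like cells, 0.94 as reported, was higher in HFD in every alternative run. It was 1.02 at resolution 0.5, 1.17 at 2.0, 1.06 with all deposited cells, 1.20 with the stricter filter (a minimum of 500 genes, mitochondrial UMIs up to 15%), 1.04 with doublets kept, 1.04 with the 10 genes allowed in the clustering and 1.00 with all platelet lists left out of it. It was 0.49 with cells thinned to 1000 UMIs, 0.43 as a mean over cells, 0.46 without the 5% deepest cells and 0.79 (0.785) without the 5 cells of each library richest in these genes. In megakaryocyte-like cells Pf4 turned to -0.084 without the 5% deepest cells. The class's share of cells had a ratio of 0.82, and of 0.66 both at resolution 2.0 and with the stricter filter. In other cells the sum, at -0.02, was -0.21 with the 10 genes allowed and 0.28 with the lists left out. In primitive cells the sum, at -0.61, was -0.094 with doublets kept, Pf4 was 0.058 with all deposited cells and 0.17 thinned, and Itga2b was 0.13 with the stricter filter. In megakaryocyte-like cells Itga2b, at 0.15, ran between -0.20 (thinned) and 0.40 (stricter filter), and Vwf, at -0.11, between -0.69 (without the deepest cells) and 0.14 (stricter filter). In platelet-gene-rich cells Vwf was 0.42 thinned, on few UMIs, and Itga2b was 0.21 with all deposited cells. The background was 4.35% higher and 4.37% lower at a minimum of 20 UMIs, and 1.48% and 0.442% at 200 UMIs; at 20 UMIs 1 gene of the lists was lower, against 0 at 50. The causes of these shifts were not tested. Each clustering drew its own class. With 1 library per diet, no replicate could be left out and differences between animals or runs cannot be told apart from diet. No paired analysis was possible because each diet has 1 library. Few cells and few UMIs limit the platelet-gene-rich and primitive values most.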
